A study of Mus musculus with 32 samples.

Results

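The neutrophil granule genes, a set of 10 genes that encode granule and cytosolic proteins of neutrophils, were followed across the meninges, the hippocampus (HPC) and sorted meningeal lymphatic endothelial cells (mLECs) of the series. The members were listed by gene symbol, with earlier results of these data known (S100a8, S100a9, Retnlg, Camp, Ngp, Ltf, Mpo, Elane, Mmp8 and Lyz2), no threshold on their values was used, and they are 10 of the 22337 genes of the expression tables. All samples came from male mice of 6 months on a C57BL/6J background, and each library was made from 1 mouse. WT mice were littermates without the transgenes. 5xFAD mice carry mutant human amyloid precursor protein and presenilin 1 transgenes, which are driven by Thy1 regulatory sequence and thus expressed in neurons, and were given no near-infrared light. By the study's methods, control mice were also anaesthetised and shaved and were placed under room lighting instead, so that "untreated" below means without near-infrared light. 5xFAD + light mice have the same genotype and received near-infrared light through the scalp and skull. The meninges gave 4 WT, 3 5xFAD and 3 5xFAD + light libraries, the HPC gave 4 of each, and the mLECs gave 4, 3 and 3.

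Neutrophils are made in the bone marrow and fill their granules in a fixed order as they mature. Promyelocytes load azurophil granules with myeloperoxidase and serine proteases, myelocytes and metamyelocytes load specific and gelatinase granules with antimicrobial proteins and metalloproteinases, and messenger RNA of the azurophil proteins is largely lost before cells leave the marrow, whereas S100a8 and S100a9 remain abundant in circulating cells. The meninges lie under skull marrow that is joined to the dura by vascular channels, and a stripped meningeal preparation can hold blood, resident leukocytes and pieces of bone or marrow. In bulk tissue, more cells of a type and more RNA per cell cannot be told apart.

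Several members are neighbours on the genome (GRCm38, GENCODE vM21, all protein-coding). S100a8 (chr3:90668978-90670035, plus strand) and S100a9 (chr3:90692632-90695721, minus strand) lie 22.6 kb apart. Camp (chr9:109847379-109849617), Ngp (chr9:110419747-110423012) and Ltf (chr9:111019271-111042767) follow each other on chromosome 9, with gaps of 570 and 596 kb, and Mmp8 (chr9:7558456-7568485) lies far from them on the same chromosome. The other members are Mpo (chr11:87793581-87804413), Elane (chr10:79886247-79888215), Lyz2 (chr10:117277331-117282321) and Retnlg (chr16:48872621-48874496).

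The bases just before the RefSeq start sites of 4 members are shown because C/EBP factors and PU.1 are known to act on granule genes. These 4 genes stand for the S100 proteins (S100a9), the late granules (Ngp, Ltf) and the early granules (Elane). Each is 250 bases long, 5′ to 3′ on the gene's own strand, ends 1 base before the RefSeq start (GRCm38.p6), and has in capitals the letters TTGCNNAA (C/EBP) or GAGGAA (PU.1) on either strand. For Ngp, Ltf and Elane the RefSeq start lies 61, 21 and 65 bases downstream of the GENCODE gene start. The last bases shown for these 3 genes, with the second C/EBP match of Ngp, thus lie inside the GENCODE gene.
S100a9, chr3:90695722-90695971, minus strand: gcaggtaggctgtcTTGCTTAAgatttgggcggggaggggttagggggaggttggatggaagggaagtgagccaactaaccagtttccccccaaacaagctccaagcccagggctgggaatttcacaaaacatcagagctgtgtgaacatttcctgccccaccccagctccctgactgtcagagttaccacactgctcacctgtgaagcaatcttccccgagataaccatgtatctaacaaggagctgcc
Ngp, chr9:110419558-110419807, plus strand: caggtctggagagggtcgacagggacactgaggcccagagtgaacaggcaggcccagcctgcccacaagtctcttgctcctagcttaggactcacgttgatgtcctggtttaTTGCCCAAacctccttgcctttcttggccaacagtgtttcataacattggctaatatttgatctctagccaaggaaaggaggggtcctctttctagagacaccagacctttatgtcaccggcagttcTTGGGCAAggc
Ltf, chr9:111019042-111019291, plus strand: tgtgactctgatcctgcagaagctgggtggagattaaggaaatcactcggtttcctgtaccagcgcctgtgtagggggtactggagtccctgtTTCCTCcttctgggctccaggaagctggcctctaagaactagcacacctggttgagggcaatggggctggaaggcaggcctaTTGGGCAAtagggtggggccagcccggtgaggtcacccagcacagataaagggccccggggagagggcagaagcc
Elane, chr10:79886062-79886311, plus strand: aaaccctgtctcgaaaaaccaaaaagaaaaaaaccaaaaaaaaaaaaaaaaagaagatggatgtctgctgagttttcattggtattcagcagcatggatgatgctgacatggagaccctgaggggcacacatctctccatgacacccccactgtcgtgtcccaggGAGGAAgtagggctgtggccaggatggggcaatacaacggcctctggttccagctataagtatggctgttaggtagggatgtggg
In windows of 250 bases before to 50 after the start, the C/EBP letters were found for 5 of the 10 members (S100a9, Retnlg, Ngp, Ltf and Mmp8) and in 10.8% of 32851 RefSeq promoters. The PU.1 letters were found for 5 members (S100a8, Ltf, Mpo, Elane and Mmp8) and in 28.28% of promoters, and the RUNX letters TGTGGT for 3 members (S100a9, Ltf and Lyz2) and in 16.76%. The C/EBP letters were absent from the windows of the early genes Mpo and Elane, and also from those of S100a8, Camp and Lyz2. The motif letters do not overlap in the 4 sequences shown. These matches are descriptions of the sequence and not evidence of binding.

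Sequencing depth was 6601143 to 14708202 expected counts per library in the meninges, 13952825 to 23856476 in the HPC and 14231415 to 24207326 in the mLECs, and the members took 0.119% to 0.715% of the counts of a meningeal library. Levels below are FPKM, a fragment count scaled by transcript length and by library size, and can be set beside each other across genes. Lyz2 had expected counts that were not whole numbers, as happens when reads are shared with a near-identical copy (Lyz1), so its level carries that uncertainty. The mLEC libraries were processed in a separate table and their levels are not tested against the tissues, and WT mLEC replicates 2 and 4 stood apart from the others in being low in lymphatic endothelial markers.

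The meninges of WT mice expressed all 10 members. In WT meninges minus WT HPC, edgeR's quasi-likelihood test over both tissues called all 10 higher (adjusted p below 0.05 and at least 2-fold), where 51.4% of the 15132 genes tested were called in either direction and 30.1% were higher. The log2 fold change ran from 4.98 for Mpo (SE 1.08, adjusted p = 3.3e-04 by edgeR) to 10.08 for Retnlg (SE 1.03, adjusted p = 2.8e-08 by edgeR), and it was 5.96 for Lyz2 (SE 0.43). From counts summed over the 4 WT libraries of each tissue, S100a8 was 955-fold higher in meninges, relative to the libraries' totals (95% interval 647 to 1476, counting error only) and Mpo 41.4-fold higher (26.2 to 69.4). Mmp8 had 291 counts in WT meninges and 0 in WT HPC, at least 173-fold higher against a limit of 3 counts over the HPC group.

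Over the 10 meningeal libraries the order of the median FPKM was Lyz2 (1135), S100a8 (637), S100a9 (353), Ngp (76.5), Camp (67.2), Retnlg (38.8), Ltf (17.5), Elane (5.64), Mpo (4.17) and Mmp8 (3.53). Within libraries, 4 of the 9 steps in this order were not kept in every library. Lyz2 was above S100a8 in 7 of 10 libraries, Ngp above Camp in 5 of 10, and Elane above Mpo and Mpo above Mmp8 in 8 of 10 each. The order of these neighbours thus varied between libraries, and whether their levels differ was not tested. The steps from S100a8 down to S100a9 and Ngp, and from Camp down to Retnlg, Ltf and Elane, held in 10 of 10.

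S100a8 and S100a9 encode the subunits of calprotectin, a calcium- and zinc-binding protein that makes up much of the neutrophil cytosol. S100a8 in the meninges was at 685, 588, 811 and 292 FPKM in WT replicates 1 to 4, at 338, 1670 and 911 in 5xFAD replicates 1, 2 and 4, and at 4286, 350 and 429 in 5xFAD + light replicates 1, 2 and 4. S100a9 was at 387, 318, 466 and 183 in WT, at 190, 955 and 483 in 5xFAD, and at 2133, 183 and 189 in 5xFAD + light. For both genes 5xFAD + light replicate 1 was the highest library and 5xFAD replicate 2 the second, while the other 2 light-treated libraries lay inside the WT range, and the 3 groups overlapped. The ratio of S100a8 to S100a9 stayed between 1.60 and 2.27 over the 10 libraries, whatever their level.

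**Figure D1:**
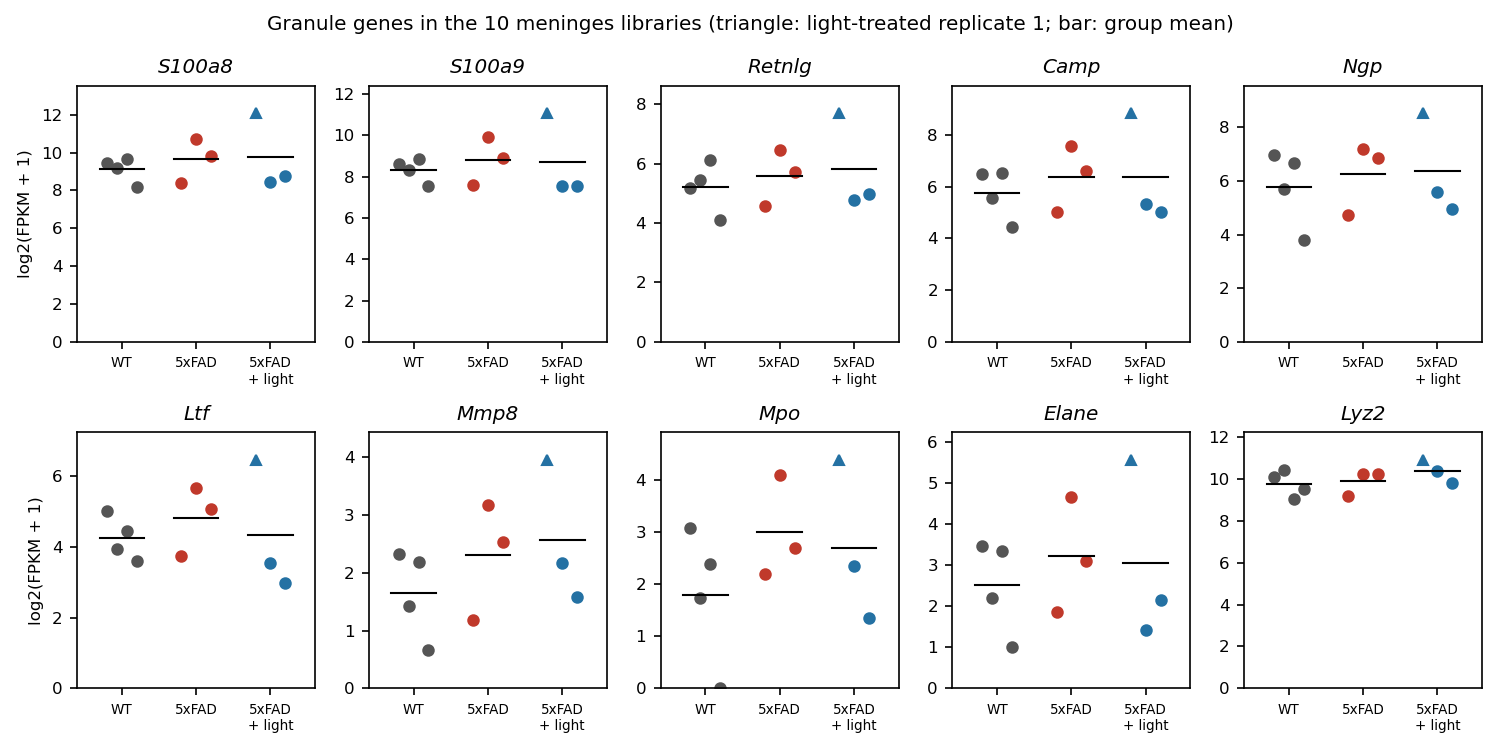
Log2(FPKM + 1) of each of the 10 members in the 10 meningeal libraries, in 1 panel per gene, with 1 point per mouse, a bar at the group mean and a triangle for 5xFAD + light replicate 1. The triangle is the highest point of every panel, for S100a8 at 4286 FPKM beside 350 and 429 FPKM in the other light-treated libraries.

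Among the late granule genes, Camp encodes the cathelicidin antimicrobial peptide precursor, Ngp a neutrophilic granule protein of the cystatin fold and Ltf the iron-binding lactoferrin. Camp was at 88.5, 45.8, 91.8 and 20.5 FPKM in WT meninges, at 31.3, 188 and 95.8 in 5xFAD, and at 455, 38.9 and 31.3 in 5xFAD + light. Ngp was at 124, 50.9, 102 and 12.8 in WT, at 25.5, 146 and 115 in 5xFAD, and at 366, 47.2 and 30.2 in 5xFAD + light. Ltf was at 31.1, 14.3, 20.6 and 11.2 in WT, at 12.3, 49.4 and 32.4 in 5xFAD, and at 86.5, 10.7 and 6.92 in 5xFAD + light. As for the S100 genes, 5xFAD + light replicate 1 stood above all other libraries, and replicates 2 and 4 of that group were among the lower ones.

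Mmp8 encodes neutrophil collagenase, and Retnlg a resistin-like protein that is abundant in mouse neutrophils and marrow. Mmp8 was at 4.01, 1.69, 3.57 and 0.59 FPKM in WT, at 1.28, 8.09 and 4.80 in 5xFAD, and at 14.5, 3.49 and 1.99 in 5xFAD + light. Retnlg was at 35.1, 42.5, 68.8 and 16.3 in WT, at 22.7, 86.6 and 51.0 in 5xFAD, and at 205, 26.4 and 30.4 in 5xFAD + light. Both followed the same order of libraries at the top, with 5xFAD + light replicate 1 first and 5xFAD replicate 2 second, and both were lowest in WT replicate 4.

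The early genes Mpo (myeloperoxidase, which makes hypochlorous acid) and Elane (neutrophil elastase) were present at low levels. Mpo was at 7.52, 2.32, 4.26 and 0 FPKM in WT, at 3.61, 16.2 and 5.53 in 5xFAD, and at 20.0, 4.08 and 1.56 in 5xFAD + light. Elane was at 10.1, 3.62, 9.12 and 1.01 in WT, at 2.64, 24.4 and 7.65 in 5xFAD, and at 46.3, 1.69 and 3.43 in 5xFAD + light. Their highest, second and lowest libraries were the same as for Camp, Ngp and Mmp8, namely 5xFAD + light replicate 1, 5xFAD replicate 2 and WT replicate 4.

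Lyz2 encodes lysozyme M, which neutrophils store in granules and which monocytes, macrophages and activated microglia also make. It was at 1071, 1365, 518 and 726 FPKM in WT meninges, at 581, 1218 and 1200 in 5xFAD, and at 1911, 1341 and 881 in 5xFAD + light. Its range over the 10 libraries was 3.69-fold, the narrowest of the members, beside 14.7-fold for S100a8, 28.6-fold for Ngp and 45.9-fold for Elane. The ratio of Lyz2 to S100a8 moved from 0.446 to 3.83.

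No member was called in any comparison of the meninges. The comparisons asked whether the genotype, light in 5xFAD mice, or both together changed expression, and all 10 members were tested in each. For 5xFAD minus WT, edgeR called 0 of 10 members and 0% of the 14318 genes, and the members' log2 fold changes ran from 0.12 for Lyz2 (SE 0.39) to 1.08 for Mpo (SE 0.99), with a median of 0.76 beside -0.003 over all genes. S100a8 differed by 0.74 (SE 0.75), Camp by 0.81 (SE 0.83), Elane by 0.99 (SE 1.00) and Mmp8 by 0.97 (SE 0.73) on the log2 scale, and the adjusted p of the members by edgeR lay between 0.987 and 0.996. At an unadjusted p under 0.05, 0 members passed beside 4.01% of genes, and DESeq2 also called 0. All 10 members overlapped between the groups, whereas 4.85% of genes did not overlap. Without 5xFAD replicate 2 the median log2 fold change was 0.01, with 6 of 10 members above 0.

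For light-treated minus untreated 5xFAD mice, edgeR called 0 of 10 members in the meninges, where 0.0140% of genes were called. The log2 fold changes ran from 0.15 for Mpo to 0.84 for S100a8 (SE 0.81), with a median of 0.63 beside 0.04 over all genes and adjusted p by edgeR between 0.651 and 0.964. At an unadjusted p under 0.05, 0 members passed beside 12.7% of genes, DESeq2 called 0, and all 10 members overlapped between the groups, where 20.8% of genes did not. The direction rested on 1 mouse. Without 5xFAD + light replicate 1, 1 of 10 members (Lyz2, 0.08) was above 0, the median was -1.44 and Elane was at -2.21, with no adjusted p by edgeR under 0.307. On log2(FPKM + 1), where a single high library weighs less, the members' median was 0.05, with 5 of 10 above 0, from -0.49 for Ltf and -0.31 for Mpo to 0.27 for Mmp8 and 0.47 for Lyz2, and exact two-sided permutation tests, which cannot go below 0.10 with 3 against 3 mice, gave p between 0.4 and 0.9.

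For light-treated 5xFAD minus WT, edgeR again called 0 of 10 members, beside 0.0140% of genes. The log2 fold changes were 1.58 for S100a8 (SE 0.75), 1.37 for S100a9, 1.59 for Camp, 1.60 for Elane and 0.58 for Lyz2, with a median of 1.30 beside 0.01 over all genes and adjusted p by edgeR between 0.314 and 0.561. At an unadjusted p under 0.05, 0 members passed beside 16.4% of genes, DESeq2 called 0, and all 10 overlapped, where 12.3% of genes did not. Without 5xFAD + light replicate 1 the median was -0.74, with 2 of 10 members above 0. The 3 comparisons share their groups in pairs, so their values are not independent of each other.

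**Figure D2:**
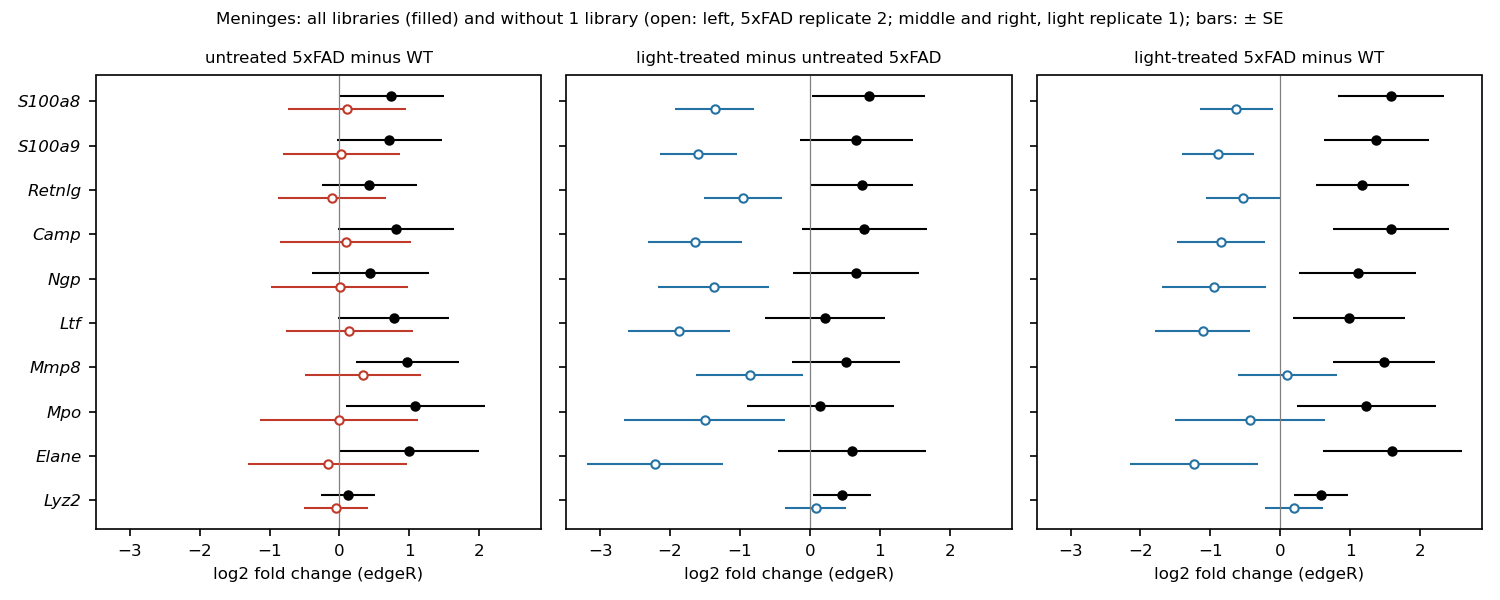
Log2 fold change of each member by edgeR in the 3 meningeal comparisons, with ± SE as bars, from all 10 libraries (filled) and from the fit without 1 library (open), which is 5xFAD replicate 2 on the left and 5xFAD + light replicate 1 in the middle and on the right. The filled points of all 10 members lie above 0, and without 5xFAD + light replicate 1 the medians are -1.44 in the middle and -0.74 on the right.

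The library that set these values, 5xFAD + light replicate 1, was looked at after its levels were seen. It was the highest of the 10 libraries for all 10 members, as it was for 7.04% of all genes tested. Its level was at least 2-fold above each of the other 9 libraries for 5 members (S100a8, S100a9, Retnlg, Camp and Ngp), as for 0.314% of genes. Against the median of the other 9 libraries, Elane was 12.8 times higher in it, Camp 9.93 times, S100a8 7.28 times, Mpo 4.91 times, Mmp8 4.17 times and Lyz2 1.79 times. 5xFAD replicate 2 was second for 9 members, and WT replicate 4 was lowest for 8.

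The mean log2(FPKM + 1) of Mpo and Elane minus that of Camp, Ngp, Ltf, Mmp8, S100a8, S100a9 and Retnlg was -3.002, -3.68, -3.49 and -4.11 in the WT meninges, -2.996, -2.85 and -3.59 in 5xFAD, and -3.39, -3.45 and -3.37 in 5xFAD + light. The 3 light-treated libraries thus lay between -3.45 and -3.37, although their late genes differed several-fold in level, and the groups overlapped. The group means were -3.57 ± 0.46 (SD, n = 4), -3.15 ± 0.39 (SD, n = 3) and -3.40 ± 0.045 (SD, n = 3), so that 5xFAD and WT differed by 0.43 and light-treated and untreated 5xFAD mice by -0.26. These differences did not exceed the SD within the groups, 0.43 and 0.28. With a pseudocount of 0.1 they were 0.89, beside an SD of 0.94, and -0.37, beside 0.33, so their size depended on the pseudocount, and no test was made of a score over the members. Elane was at 4.34% to 13.0% of the Camp level, Mpo at 0% to 11.5%, Camp at 0.712 to 1.60 times Ngp, and Ltf at 0.202 to 0.870 times Ngp.

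**Figure D3:**
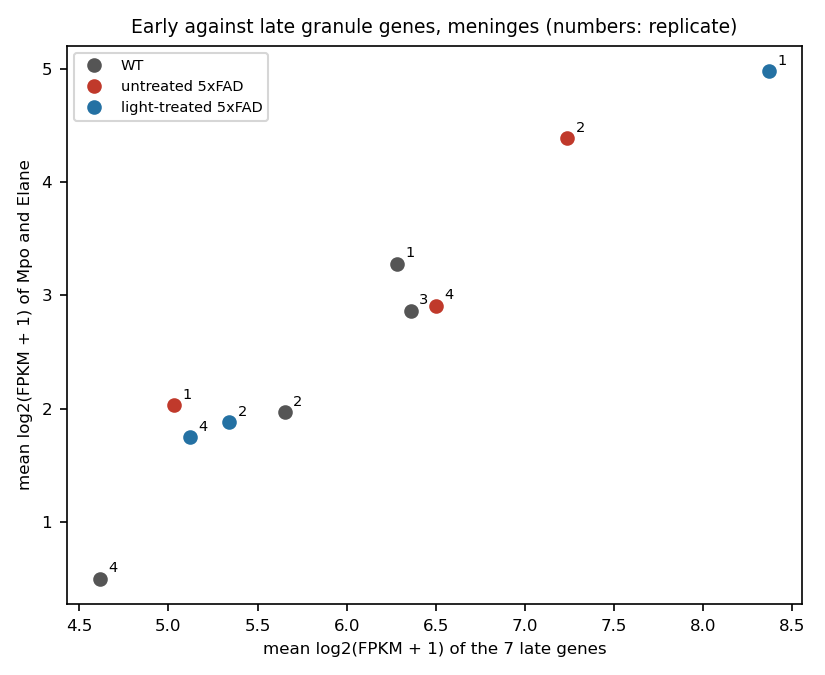
Mean log2(FPKM + 1) of the early genes Mpo and Elane (vertical) against that of the 7 late genes (horizontal) in each of the 10 meningeal libraries, coloured by group and numbered by replicate. The points rise together from WT replicate 4 at the lower end to 5xFAD + light replicate 1 at the upper end, and early minus late stays between -4.11 and -2.85.

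Over the 10 meningeal libraries, Pearson's r of log2(FPKM + 1) among the 9 members other than Lyz2 was 0.826 to 0.993 for the 36 pairs (median 0.929), and 0.738 to 0.986 without 5xFAD + light replicate 1. With Lyz2 the same members had r of 0.465 to 0.634. These points share their library and its cell make-up, so the values describe these 10 libraries and carry no p. Of the 13306 other genes ranked by their r to the mean scaled profile of the 7 late members, the 10 highest were Pram1 (0.964), Mcpt8 (0.960), Cd177 (0.957), Ifitm6 (0.956), Trem3 (0.952), Chil3 (0.95), Ctsg (0.933), Wfdc21 (0.932), Prtn3 (0.926) and Ly6g (0.922). Without the 2 libraries farthest from the median of that profile, WT replicate 4 and 5xFAD + light replicate 1, their r was 0.815 to 0.961. Elane and Mpo themselves were at 0.974 and 0.899, and Lyz2 at 0.575.

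Other genes of the neutrophil programme were read from fixed lists, and 0 genes of any list were called in any comparison of the meninges. Among the 6 azurophil genes, of which Mpo and Elane are 2, the median log2 fold change was 1.04 for 5xFAD minus WT, 0.38 for light-treated minus untreated 5xFAD and 1.42 for light-treated 5xFAD minus WT. Ctsg (cathepsin G) had the highest 5xFAD minus WT value of that list, 2.33 (SE 1.07, adjusted p = 0.987 by edgeR). The medians were 0.62, -0.02 and 0.53 for the 7 tested of 10 other specific and gelatinase granule genes (such as Lcn2, Chil3 and Cd177), and 0.31, 0.18 and 0.52 for the 15 tested of 17 mature neutrophil genes (such as Ly6g, Csf3r and Cxcr2). The 5 phagocyte oxidase genes had medians of -0.06, 0.37 and 0.28, the 4 tested of 6 granulopoiesis factors -0.14, -0.99 and -1.08, and the 6 tested of 8 neutrophil traffic genes 0.23, 0.32 and 0.28.

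Markers of some other cells were also high in 5xFAD + light replicate 1. The summed FPKM of the erythroid markers (globins and red cell membrane genes) was 48575 in that library beside 5040 to 18236 in the other 9, with 8 of the 9 genes found being above 0 in every library, and the 8 tested had a median log2 fold change of 1.13 for light-treated minus untreated 5xFAD. The summed level of the cycling cell markers was 24.7 beside 5.87 to 9.84, and that of the B lineage and marrow precursor markers was 75.3, again the highest of the 10. Relative to the median of the 10 libraries, the 9 members other than Lyz2 were 6.24 times higher in 5xFAD + light replicate 1, azurophil genes 6.74 times, erythroid 4.53 times, mature neutrophil 3.61 times and cycling 3.29 times. The azurophil list is not separate from the members, since Mpo and Elane gave 20.0 and 46.3 of its 102 FPKM in this library. In the mature neutrophil list, Wfdc21 alone gave 97.2 of 161 FPKM. The r of 12 genes of that list to the late profile ran from 0.12 (Hdc) to 0.93 (Wfdc21). The macrophage markers were 1.43 times, fibroblast 1.08 times and osteoblast markers 1.05 times the median there. Osteoblast markers were highest in 5xFAD + light replicate 4 (3503 beside 206 to 1020 elsewhere), a library in which the members were low. The part of blood, marrow or bone in the members' levels was not tested.

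**Figure D4:**
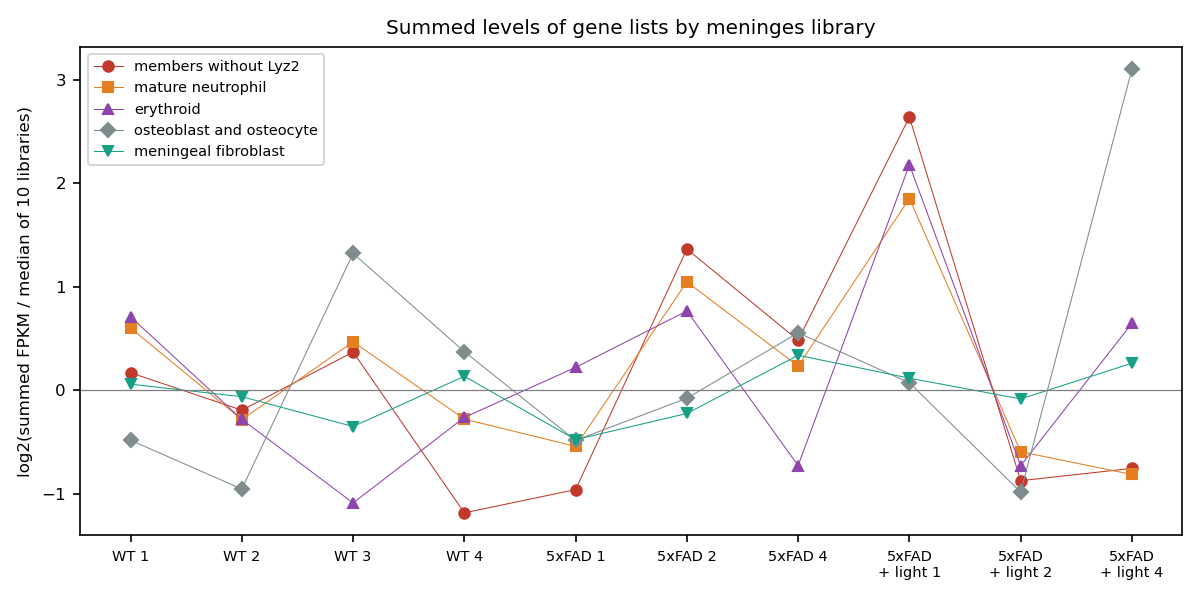
Log2 of the summed FPKM of 5 gene lists in each of the 10 meningeal libraries, relative to the list's median over the 10 libraries, with 1 symbol and colour per list and lines that only join the points of a list. In 5xFAD + light replicate 1 the members without Lyz2, the erythroid and the mature neutrophil lists are 6.24, 4.53 and 3.61 times their medians, whereas fibroblast and osteoblast lists are at 1.08 and 1.05 times. Wfdc21 alone gives 97.2 of the 161 FPKM of the mature neutrophil list in that library.

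In the HPC the members other than Lyz2 were close to the limit of detection, and most of what follows rests on few reads. S100a8 had 8, 8, 3 and 6 counts in WT (0.68, 0.90, 0.41 and 0.63 FPKM), 21, 54, 32 and 23 in 5xFAD (2.10, 4.91, 4.59 and 2.59 FPKM), and 20, 0, 6 and 5 in 5xFAD + light (2.36, 0, 0.71 and 0.62 FPKM). S100a9 had 7, 5, 1 and 0 counts in WT, 10, 18, 22 and 13 in 5xFAD, and 8, 2, 2 and 8 in 5xFAD + light. Both genes were thus higher in each 5xFAD mouse than in any WT mouse. S100a9 was also higher in FPKM in each 5xFAD mouse than in any light-treated one, by a narrow gap (lowest 0.95 beside highest 0.94 FPKM).

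Of the late granule genes, Ngp showed the same order of groups in the HPC. It had 4, 4, 2 and 1 counts in WT, 7, 23, 22 and 22 in 5xFAD, and 6, 1, 4 and 3 in 5xFAD + light. Camp had 0, 2, 1 and 1 counts in WT, 2, 9, 4 and 6 in 5xFAD, and 0, 0, 1 and 1 in 5xFAD + light. Ltf had 1, 0, 0 and 2, then 7, 9, 2 and 11, and then 0 in all 4 light-treated libraries. The early gene Mpo did not share this order, with 0.09, 0.31, 0.37 and 0.18 FPKM in WT, 0.02, 0.11, 0 and 0.14 in 5xFAD, and 0, 0.19, 0.25 and 0.15 in 5xFAD + light. Retnlg, Mmp8 and Elane had 5, 2 and 1 counts in all 12 libraries together.

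**Figure D5:**
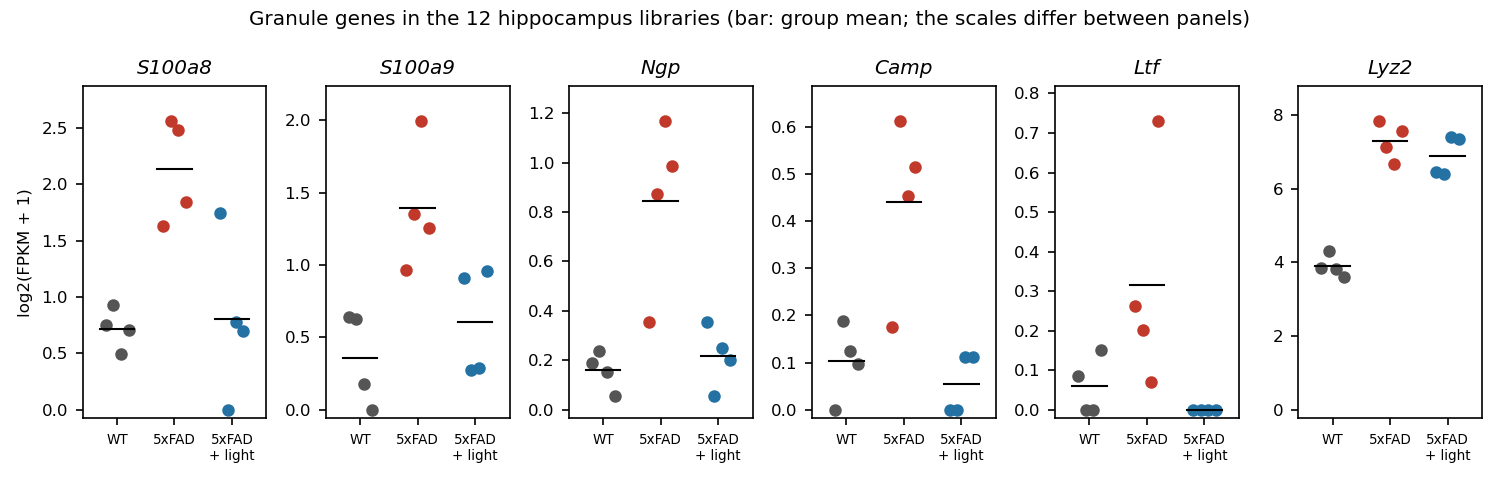
Log2(FPKM + 1) of 6 members in the 12 HPC libraries, with 1 point per mouse, a bar at the group mean and scales that differ between the panels. S100a8, S100a9 and Ngp are higher in each 5xFAD library than in any WT library, Ltf is at 0 in all 4 5xFAD + light libraries, and Lyz2 is higher in both 5xFAD groups than in WT.

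Only S100a8, S100a9 and Lyz2 passed the filter on low values in the HPC, and both S100 genes passed it through the 5xFAD libraries, so that their being called is not independent of the filter. For 5xFAD minus WT, edgeR called 2 of these 3, where 4.28% of the 12981 genes tested were called and 4.23% were called higher. Lyz2 rose by a log2 fold change of 3.56 (SE 0.32, adjusted p = 3.15e-05 by edgeR), from 13.4, 18.9, 13.1 and 11.1 FPKM in WT to 229, 140, 100 and 188 in 5xFAD. S100a8 rose by 2.40 (SE 0.67, adjusted p = 0.0399 by edgeR), and S100a9 differed by 2.36 (SE 0.72, adjusted p = 0.0601 by edgeR). The S100a8 call was lost in 6 of 8 fits that each left out 1 WT or 5xFAD library (adjusted p by edgeR 0.0642 to 0.106) and without the filter (0.0535), and S100a9 was called by DESeq2 (adjusted p = 0.0300).

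Without the filter, edgeR called 3.36% of 20292 genes for 5xFAD minus WT in the HPC, among them Ngp at 2.76 (adjusted p = 0.0211 by edgeR), whereas Ltf at 3.06 and Camp at 2.19 had adjusted p of 0.110 and 0.230 by edgeR. S100a8, S100a9, Ngp and Lyz2 did not overlap between the groups, all of them higher in 5xFAD, as for 6.90% of those genes, and each reached the smallest two-sided p that an exact permutation test of 4 against 4 mice allows, 0.0286 (0.0714 after Benjamini-Hochberg adjustment over the members). From summed counts relative to the libraries' totals, 5xFAD exceeded WT by 5.30-fold for S100a8 (95% interval 3.43 to 8.48) and 6.85-fold for Ngp (3.62 to 14.3), and the Mpo ratio was 0.697 (0.316 to 1.49), with intervals that cover counting error only.

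For light-treated minus untreated 5xFAD mice in the HPC, edgeR called none of the 3 members tested, where 0.270% of genes were called. The log2 fold change was -1.93 for S100a8 (SE 0.65, adjusted p = 0.152 by edgeR), -1.57 for S100a9 (SE 0.68, adjusted p = 0.243 by edgeR) and -0.39 for Lyz2 (SE 0.29, adjusted p = 0.481 by edgeR). At an unadjusted p under 0.05, S100a8 and S100a9 passed beside 18.3% of genes, but both had passed the filter mainly through the untreated 5xFAD libraries in which they were high, so this count is no support for a difference. DESeq2 called 0. S100a9, Camp and Ltf did not overlap between the groups, all lower with light, as for 3.09% of genes, each with an exact two-sided permutation p of 0.0286 (0.0857 after adjustment over the members). The gaps were narrow. The lowest untreated and highest light-treated values were 0.95 and 0.94 FPKM for S100a9, 2 and 1 counts for Camp, and 2 and 0 counts for Ltf. S100a8 and Ngp overlapped between the groups (exact two-sided permutation p of 0.0571 each). The summed counts with light, relative to the totals, were 0.258 times those without for S100a8 (95% interval 0.168 to 0.384, counting error only) and 0.205 times for Ngp. Ltf, with 29 counts against 0, was at least 8.94-fold lower against a limit of 3 counts over the group. Summed counts hold no spread between mice. Lyz2 was at 86.5, 83.4, 168 and 162 FPKM in 5xFAD + light, with 2 libraries inside and 2 below the untreated 5xFAD range.

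For light-treated 5xFAD minus WT in the HPC, edgeR called Lyz2 (log2 fold change 3.17, adjusted p = 1.11e-04 by edgeR), where 2.36% of genes were called. S100a8 and S100a9 differed by 0.47 and 0.79 and were not called. Lyz2 was the 1 member whose groups did not overlap, as for 5.89% of genes in that direction.

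Markers of other cells were read beside these values in the HPC, and not all of them followed the order of S100a8. The summed FPKM of the meningeal fibroblast markers was 30.0 to 60.7 in WT, 38.6 to 110 in 5xFAD and 14.4 to 25.7 in 5xFAD + light, without overlap between the 5xFAD groups, and 4 of the 5 genes tested had an unadjusted p under 0.05 for light-treated minus untreated mice, with 0 called. The 5 platelet and megakaryocyte markers, of which 4 were above 0 in every library, followed the order of S100a8 with a summed FPKM of 2.98 to 4.74 in WT, 5.80 to 14.8 in 5xFAD and 2.78 to 4.34 in 5xFAD + light, and untreated 5xFAD overlapped neither other group. Of the 2 tested, Pf4, which platelets and some macrophages express, rose for 5xFAD minus WT by 1.63 (SE 0.43, adjusted p = 0.0328 by edgeR) and differed by -1.36 with light (adjusted p = 0.138 by edgeR). The osteoblast markers, 2 of 5 above 0 in every library, were at 2.70 to 4.41, 3.69 to 5.27 and 2.24 to 3.42, and the 5xFAD groups did not overlap. Erythroid markers were at 10 to 77.3 in WT, 27.7 to 319 in 5xFAD and 43.0 to 328 in 5xFAD + light. For 5xFAD minus WT, where 4.23% of all genes tested were called higher, 5 of 5 phagocyte oxidase genes (median log2 fold change 2.00), 5 of 5 tested macrophage genes and 2 of 5 microglia genes rose, and of the mature neutrophil list, where 2 of 17 were tested, Csf3r, the receptor of granulocyte colony-stimulating factor, rose by 2.38 (SE 0.31, adjusted p = 2.48e-04 by edgeR). The median of Csf3r was 4.12 FPKM over the 12 HPC libraries beside 2.25 in the 10 meningeal ones, where the S100 and late granule genes were far higher. Of the 17 genes of that list, 4 were above 0 in every HPC library. Ly6g did not pass the filter in the HPC and had 0 counts in 10 of 12 libraries, Stfa2l1 in 11 and Mrgpra2b in 12. The part of meningeal remnants, blood, platelets, bone or microglia in the members' levels was not tested.

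The genotype effect on Lyz2 differed between the tissues. In the fit of both tissues, the 5xFAD minus WT difference of Lyz2 was 3.44 lower on the log2 scale in the meninges than in the HPC (log2 difference -3.44, SE 0.54, adjusted p = 0.00143 by edgeR), and it was the 1 member called, where 1.69% of genes were. For S100a8 this difference was -1.67 (SE 1.17) and not called. For light-treated minus untreated 5xFAD, edgeR called 0 of 10 members as differing between the tissues, where 0.971% of genes were called, whereas DESeq2 called 1, Ltf (adjusted p = 0.0386), which had 0 counts in the light-treated HPC. S100a8 differed by 2.74 (SE 1.17, adjusted p = 0.203 by edgeR).

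The mLECs had been sorted as CD45-negative, CD31- and podoplanin-positive cells, a gate that removes leukocytes. S100a8, S100a9, Retnlg, Camp, Ngp, Mpo and Elane had 0 counts in all 10 mLEC libraries, where 3 counts would be 0.124 to 0.211 CPM, that is, counts scaled to library size. Ltf had 16 counts (1.48 FPKM) in 5xFAD replicate 1 and Mmp8 1 count in 5xFAD replicate 2, and both were at 0 elsewhere. Lyz2 was at 14.0 FPKM in WT replicate 3, 50.03 in WT replicate 4 and 33.8 in 5xFAD + light replicate 2, and at 0.04 or less in the other 7 libraries, and it was not called in any comparison, where 0%, 0% and 0.0122% of 8188 genes were called. All 6 azurophil genes were at 0 in every mLEC library. The summed lymphatic endothelial markers were 1358 to 9784 FPKM in 8 libraries but 227 and 283 in WT replicates 2 and 4, and without either of these 2 libraries Lyz2 was again not called.

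The mLEC libraries did hold RNA of factors that act on neutrophils. Csf3, which encodes granulocyte colony-stimulating factor, was at 342 to 2138 FPKM, and Cxcl1, a neutrophil chemoattractant, at 154 to 417 FPKM over the 10 libraries. Neither was called between the groups, and 0 of the 4 neutrophil traffic genes tested were. Among the granule and oxidase lists, 2 genes were also present in every mLEC library without their neutrophil partners, Pglyrp1 (62 to 357 FPKM) and Cyba (170 to 647 FPKM), while Cybb, Chil3 and Cd177 were at 0 in all 10.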

How the data were processed

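RNA libraries were made with Smart-seq2 from total RNA of tissue or from sorted cells. The authors deposited expected counts and FPKM per gene, in 1 table for meninges and HPC and 1 for mLECs. The study's methods name fastp and RSEM, whereas the submitters' processing notes name Trimmomatic, HISAT2, StringTie, DESeq2 and mm10, and which tools made the tables could not be settled from the sources used here. Multi-mapped reads can make an expected count fractional or move between paralogs. Gene symbols were joined from the mLEC table by gene identifier.

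Expected counts were rounded and fitted with edgeR 4.0.16 (R 4.3.3; TMM scaling, quasi-likelihood test), with the 3 groups of a tissue in 1 fit, for genes that reached 1 FPKM in 3 or more samples of the tissue. Genes were called at a Benjamini-Hochberg adjusted p under 0.05 and at least a 2-fold change. SEs were derived from the F statistic. Single members were also compared by exact two-sided permutation of log2(FPKM + 1). Alternatives were DESeq2 1.42.0, limma 3.58.1 with pseudocounts of 1 and 0.1, other scaling and filters, the compared groups alone, a replicate block and leaving out each library. The fits were tested on simulated data. The p-values measure the spread between single mice.

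The named genes were every member, genes of the marker lists and the 10 genes with the highest correlation to the late profile. The members and lists were chosen with earlier results of these data known.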

Additional observations from a re-analysis of the deposited data

Results flagged for a closer look

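The genotype effect on Lyz2 differed between the tissues by a test of the difference itself: 5xFAD minus WT was lower in the meninges than in the HPC by a log2 difference of -3.44 (adjusted p = 0.00143 by edgeR). Lyz2 was higher in 4 of 4 5xFAD than WT mice in the HPC, and its groups overlapped in the meninges.

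In the HPC, 3 groups of 4 mice each had 1 library far from the rest, and in each of them it was the 1 library above 0, with a single count. These were Retnlg in WT (0.09 FPKM) and in 5xFAD + light (0.10 FPKM), and Elane in WT (0.05 FPKM). Of 36 groups examined, these were the ones picked out. For continuous values chance alone picks about 1 group in 20, a rate that does not apply to groups of 0 and single counts.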

How the results depend on the processing

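In the meninges no member was called in any comparison under the alternatives run, which tested all 10 members except for a mean FPKM of at least 5, where 9 were tested. Replicate numbers are shared between groups, but same-numbered samples of different groups did not deviate together within a tissue (r of -0.316 to 0.256 in the meninges and -0.244 to 0.093 in the HPC, beside -0.329 to 0.395 and -0.287 to 0.324 for other pairs). These r values come from few pairs and cannot exclude a shared batch. They also cannot show whether a number marks the same mouse in both tissues, and the main fit of both tissues treated their libraries as independent. With the replicate block, light-treated minus untreated 5xFAD in the meninges reversed for Mmp8 (-0.17), Mpo (-0.89), Elane (-0.64), Ngp (-0.55), Ltf (-0.90), Camp (-0.36) and S100a9 (-0.15), 5xFAD minus WT reversed for Lyz2 (-0.050) while the members' median rose from 0.76 to 1.56 (9 of 10 above 0), and HPC members called for 5xFAD minus WT went from 2 to 1 (S100a8, 2.44, adjusted p = 0.0815 by edgeR).

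With limma at pseudocounts 1 and 0.1, light-treated minus untreated 5xFAD in the meninges reversed for Mpo (-0.31 and -0.43), Elane (-0.17 and -0.28), Ltf (-0.49 and -0.53), Camp (-0.0029 and -0.0080) and S100a9 (-0.082 and -0.084), and at 0.1 light-treated 5xFAD minus WT in the HPC reversed for S100a8 (-0.25). A mean FPKM of at least 5 left 1 member called for 5xFAD minus WT in the HPC, since Lyz2 alone was tested. DESeq2 called 1 member (Ltf) for the difference of the light effect between tissues, where edgeR called 0. At a pseudocount of 0.1, early minus late was 0.89 for 5xFAD minus WT (0.43 at 1) and 0.51 for light-treated 5xFAD minus WT (0.17 at 1). The cause of these shifts was not tested.

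Leaving out 1 library at a time gave these log2 ranges in the meninges. For 5xFAD minus WT they were -0.0039 to 1.76 (Mpo), -0.17 to 1.46 (Elane), -0.11 to 0.80 (Retnlg) and -0.092 to 0.40 (Lyz2). For light-treated minus untreated 5xFAD they were -0.86 to 1.15 (Mmp8), -1.50 to 1.24 (Mpo), -2.21 to 1.77 (Elane), -0.96 to 1.28 (Retnlg), -1.38 to 1.13 (Ngp), -1.87 to 0.85 (Ltf), -1.64 to 1.499 (Camp), -1.36 to 1.48 (S100a8) and -1.59 to 1.35 (S100a9). For light-treated 5xFAD minus WT they were -0.43 to 1.90 (Mpo), -1.24 to 2.14 (Elane), -0.54 to 1.62 (Retnlg), -0.95 to 1.56 (Ngp), -1.11 to 1.45 (Ltf), -0.85 to 2.07 (Camp), -0.63 to 2.07 (S100a8) and -0.89 to 1.86 (S100a9). In the HPC, S100a8 in light-treated 5xFAD minus WT ran from -0.57 to 0.90, and 1 to 2 members were called for 5xFAD minus WT. Low counts in the HPC limit every member there but Lyz2.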
